A study of Drosophila melanogaster with 11 samples.

Results

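The transcripts described here encode 3 chromatin proteins: kis (FBtr0078144), HDAC3 (FBtr0078767) and SuUR (FBtr0076203). They were chosen by gene function and identifier, and they are 3 of the 15433 transcripts measured. kismet (kis) is a chromatin remodeling ATPase of the CHD family that belongs to the trithorax group. HDAC3 is a histone deacetylase, the catalytic subunit of a complex with the SMRTER corepressor. Suppressor of Under-Replication (SuUR) is a protein with a SNF2-like domain that binds late-replicating heterochromatin and slows replication there in polytene cells. The early fly embryo runs on mRNAs and proteins that the mother loads into the egg, chromatin regulators among them, until its own genome is switched on. Smaug binds stem-loops in such maternal mRNAs through its SAM domain and recruits the Cup repressor and the CCR4-NOT deadenylase to them.

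The RIP-Chip experiment asked which mRNAs are bound by Smaug, by measuring on microarrays the RNA that an antibody brings down with the protein. The Smaug RIP used a guinea pig anti-Smaug antibody, the control RIP used normal guinea pig serum, and the input was total RNA of embryo extract with no antibody. All 3 kinds of RNA came from wild-type embryos collected 0 to 3 hours after egg-laying from flies kept at 25°C, named Oregon-R in the sample labels and w1118 in the methods of the study. Each RIP had 3 biological replicates, of which replicate 1 was hybridized as technical replicates 1a and 1b, and the input was measured on 3 arrays, called technical replicates in the labels. A footnote of the study to all its replicate comparisons, the inputs among them, calls replicates 1, 2 and 3 biological. Extracts were of whole embryos over the whole collection window, so neither cell types nor times within the window were separated, and fewer cells with a transcript cannot be told apart from less of it per cell.

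Signals are RMA values, 1 per transcript and array, given here on the log2 scale, on which 1 unit is a doubling. Median log2 signals over all transcripts were 7.27 to 7.33 on the 4 Smaug RIP arrays, 7.30 to 7.35 on the 4 control RIP arrays and 6.99 to 7.03 on the 3 input arrays. The Smaug RIPs were all labeled with Cy5, the control RIPs with Cy5 (1a and 2) or Cy3 (1b and 3), and the inputs with Cy3. By the image names in the files, a Smaug RIP and the control RIP of its number lay on the same slide, and all inputs lay on the slide of replicate 2. This meaning of the names is not stated in the labels or methods. None of the maternal, zygotic or follicle cell marker genes looked for could be paired with a transcript identifier, so the labeled tissue was not checked against markers. Precision is limited by the number of arrays.

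All 3 transcripts were present in the input at levels above the median of all transcripts. The kis transcript was the most intense of them, with input log2 signals of 11.68, 11.86 and 11.82, a mean of 11.78 ± 0.10 (SD, n = 3 arrays). This mean ranked at position 719 from the top, the 95.3rd percentile of all 15433 transcripts. SuUR had input log2 signals of 9.94, 10.01 and 9.95, a mean of 9.97 ± 0.04 (SD, n = 3 arrays). It ranked at position 2850, the 81.5th percentile. HDAC3 had input log2 signals of 9.17, 9.56 and 9.57, a mean of 9.43 ± 0.23 (SD, n = 3 arrays), of which array 1 was the low one. It ranked at position 3856, the 75.0th percentile. The ranges of the 3 transcripts did not overlap on the input arrays. The order is one of probe set signals, which also hold the brightness of each transcript's own probes (4 for kis, 5 for HDAC3 and 5 for SuUR), so it is not an order of molecule numbers. By the sample labels, the spread between input arrays is that of repeat measurements of a reference RNA. The SD of SuUR lay at the 3.0th percentile of those of the 7716 transcripts counted as expressed, that of kis at the 14.7th and that of HDAC3 at the 49.4th. A transcript counted as expressed where its mean log2 signal in the input was above 6.85, the middle value over the array. All 3 passed this filter on input signal, which does not use the RIPs.

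**Figure D1:**
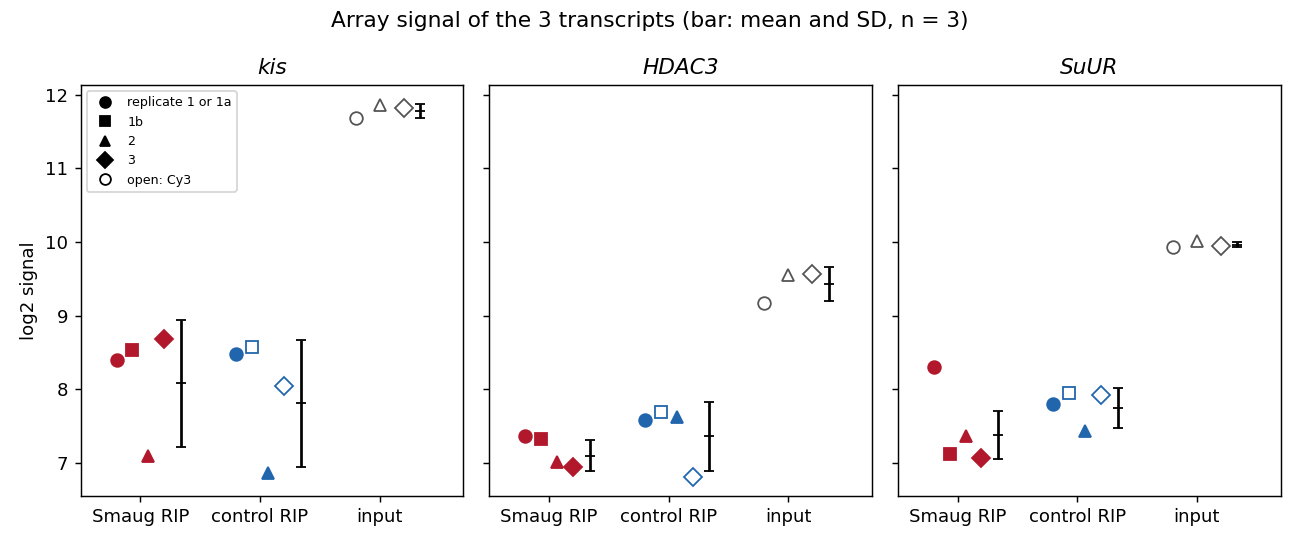
Log2 signal of kis, HDAC3 and SuUR on each array of the Smaug RIP, the control RIP and the input (y axis, log2 units). Symbols give the replicate and open symbols Cy3 labeling, and bars give the mean and SD of 3 biological replicates (RIPs, 1a and 1b averaged first) or of 3 arrays (input). Both RIPs of kis lay below the array median in replicate 2 (7.10 in the Smaug RIP, against 6.86 in the control RIP), and all RIP signals lay below the input signals.

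The comparison of Smaug with control RIPs used limma over the 7716 expressed transcripts, with arrays 1a and 1b averaged first and p-values adjusted over all of them by Benjamini-Hochberg. At an adjusted p under 0.05, 0 of the 3 transcripts were higher in Smaug RIPs, where 1.06% of expressed transcripts were, and 0 of the 3 were lower, where 0.0259% were. The 95% interval of the ratio of Smaug RIP to control RIP was 0.57 to 2.54 for kis, 0.50 to 1.42 for HDAC3 and 0.42 to 1.44 for SuUR. With these shares of calls among all transcripts, 0 of 3 is no result about these transcripts. A p that misses the threshold does not show equal levels in the RIPs. The intervals are of array signal. Where signals lie among those of transcripts not counted as expressed, the intervals do not bound the ratio of RNA. Every RIP array of HDAC3 lay at the 90.0th percentile or lower of the transcripts not counted as expressed. So did Smaug RIPs 1b, 2 and 3 and control RIPs 1a, 2 and 3 of SuUR. For kis, Smaug RIP 2 and control RIPs 2 and 3 did.

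The kis transcript had a log2 signal of 8.40, 8.53, 7.10 and 8.68 in Smaug RIPs 1a, 1b, 2 and 3, against 8.48, 8.57, 6.86 and 8.05 in control RIPs 1a, 1b, 2 and 3. In both RIPs replicate 2 was the lowest, and the 2 groups overlapped over nearly their whole range. The means were 8.08 ± 0.86 in Smaug RIPs, against 7.81 ± 0.86 in control RIPs (SD, n = 3 each). The log2 difference was 0.27 (standard error 0.54, 95% interval -0.81 to 1.34), a ratio of 1.20, with an adjusted p of 0.946 from limma. An exact permutation test of the 3 replicates per RIP, two-sided, gave p = 0.6, where 3 against 3 cannot go below 0.1. By slide, in the order 1a, 1b, 2 and 3, the Smaug RIP minus the control RIP was -0.08, -0.05, 0.24 and 0.63. The sign of this remodeler's difference rested on single replicates, since it was -0.03 when Smaug RIP replicate 3 was left out and -0.21 when control RIP replicate 2 was, with limma adjusted p of 0.743 to 0.999 over all limma alternatives.

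The drop of kis signal in replicate 2 was larger than the difference between its RIPs. In replicate 2 the kis signal lay among those of transcripts not counted as expressed, at the 46.5th percentile of them in the Smaug RIP, against the 25.1st in the control RIP, so the drop is one of signal and does not measure how far the RNA fell. Replicate 2 minus the mean of replicates 1 and 3 was -1.47 log2 units in the Smaug RIP, against -1.43 in the control RIP. Among the 274 transcripts whose mean input log2 signal lay within 0.25 of that of kis, the median of the same step was -0.27 in the Smaug RIP, against -0.03 in the control RIP. The step of kis stood at the 2.9th percentile of these transcripts in the Smaug RIP, against the 6.9th in the control RIP, and 2 of the 274 had a lower step in both. Arrays 1a and 1b of kis, technical replicates of 1 RNA, differed by -0.13 in the Smaug RIP, against -0.09 in the control RIP. The inputs, on the slide of replicate 2 by the image names, read kis at 11.68 to 11.86. By these names Smaug RIP replicate 2 shared its array with input 1, and control RIP replicate 2 with input 2. All Smaug RIPs were labeled with Cy5, so dye did not vary in their step. Control RIPs 1a and 2 were labeled with Cy5 and control RIPs 1b and 3 with Cy3. Whether the slide, the shared arrays, the extract or, in the control RIP, the dye had a part in the step was not tested.

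The HDAC3 transcript had a log2 signal of 7.37, 7.32, 7.02 and 6.95 in Smaug RIPs 1a, 1b, 2 and 3, against 7.58, 7.69, 7.62 and 6.81 in control RIPs 1a, 1b, 2 and 3. The control RIPs 1a, 1b and 2 lay above every Smaug RIP array, and control RIP 3 lay below all of them. The means were 7.10 ± 0.21 in Smaug RIPs, against 7.36 ± 0.47 in control RIPs (SD, n = 3 each). The log2 difference was -0.25 (standard error 0.38, 95% interval -1.01 to 0.51), a ratio of 0.84, with a limma adjusted p of 0.932. The exact permutation test, two-sided, gave p = 0.4. By slide, in the order 1a, 1b, 2 and 3, the difference for this deacetylase was -0.22, -0.38, -0.60 and 0.14. It was -0.52 without control RIP replicate 3 and -0.08 without replicate 2 of both RIPs, and it stayed uncalled (limma adjusted p 0.707 to 0.999 over all limma alternatives).

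The SuUR transcript had a log2 signal of 8.30, 7.12, 7.37 and 7.07 in Smaug RIPs 1a, 1b, 2 and 3, against 7.80, 7.95, 7.44 and 7.93 in control RIPs 1a, 1b, 2 and 3. Smaug RIP 1a was the highest of all 8 arrays, and the other Smaug RIP arrays lay below every control RIP array. The means were 7.38 ± 0.32 in Smaug RIPs, against 7.75 ± 0.27 in control RIPs (SD, n = 3 each). The log2 difference was -0.37 (standard error 0.45, 95% interval -1.26 to 0.52), a ratio of 0.78, with a limma adjusted p of 0.9. The exact permutation test, two-sided, gave p = 0.2. By slide, in the order 1a, 1b, 2 and 3, the difference for SuUR was 0.50, -0.83, -0.07 and -0.86. The technical replicates 1a and 1b thus gave opposite signs for the same pair of RNAs. Averaged, they gave -0.17 for replicate 1, so the difference was negative in replicates 1, 2 and 3. In the Smaug RIP the 2 arrays of SuUR differed by 1.18, an absolute difference at the 91.8th percentile of the 867 transcripts within 0.25 log2 units of its input signal, and in the control RIP by -0.15, at the 16.7th percentile. The limma adjusted p for SuUR was 0.77 to 0.999 over all limma alternatives, and leaving out replicate 3 of both RIPs gave a difference of -0.12.

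**Figure D2:**
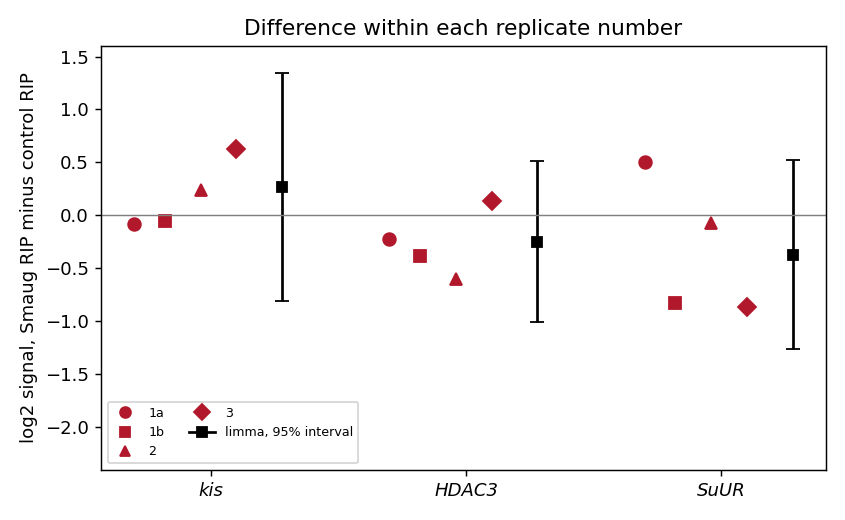
Log2 signal of the Smaug RIP minus that of the same-numbered control RIP for kis, HDAC3 and SuUR (y axis, log2 units), with red symbols for the pairs 1a, 1b, 2 and 3 and black squares for the limma difference with its 95% interval. Every interval holds 0, and each transcript has pairs on both sides of 0. For SuUR only the technical pair 1a is above 0, and replicate 1 is at -0.17 with 1a and 1b averaged.

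None of the 3 had every Smaug RIP replicate above every control RIP replicate, which 8.72% of expressed transcripts had, or every one below, which 4.74% had. In the 9 comparisons of a Smaug RIP replicate with a control RIP replicate, the Smaug RIP was higher in 6 for kis, 3 for HDAC3 and 1 for SuUR. Among all expressed transcripts the differences had a median of 0.04 and quartiles of -0.30 and 0.39. The difference of kis lay at the 67.6th percentile of these, that of HDAC3 at the 27.9th and that of SuUR at the 20.6th. The kis and HDAC3 differences thus lay between the quartiles and that of SuUR below the lower one. Dye was not balanced between the RIPs, and only control RIPs held Cy3 arrays. In control RIPs 2 and 3 dye cannot be told apart from the replicate. Replicate 1 of the control RIP was labeled with both Cy5 (1a) and Cy3 (1b), on different slides by the image names. There 1a minus 1b was -0.09 for kis, -0.11 for HDAC3 and -0.15 for SuUR. The share of Cy3 arrays as a covariate gave differences of 0.86 for kis, -0.66 for HDAC3 and -0.12 for SuUR, none of them called by limma (adjusted p 0.743, 0.707 and 0.973).

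Transcripts of like input signal did include some that passed the test. Of the 274 around kis, 12 were called higher in Smaug RIPs and 0 lower (limma), with log2 differences of 2.60 to 3.46. Of the 867 around SuUR, 7 were called higher and 0 lower, with differences of 2.14 to 3.12. Of the 964 around HDAC3, 4 were called higher and 0 lower, with differences of 1.97 to 3.11. The upper bounds of the 95% intervals of signal difference were 1.34 for kis, 0.51 for HDAC3 and 0.52 for SuUR. They lay below the smallest called difference around each. The called transcripts were picked by the test, which here passed only large differences, so this is no result about the 3 transcripts.

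The ratio of RIP to input was below 1 for all 3 transcripts in both RIPs. For kis its log2 was -3.70 in Smaug RIPs, against -3.97 in control RIPs. For HDAC3 it was -2.33 in Smaug RIPs, against -2.08 in control RIPs. For SuUR it was -2.59 in Smaug RIPs, against -2.22 in control RIPs. Such ratios are lower for transcripts of higher input signal in general, and RIP arrays had a narrower range than input arrays (95th percentile of log2 signal 9.04 to 9.54 on Smaug RIP arrays, 8.75 to 9.52 on control RIP arrays and 11.68 to 11.72 on input arrays). Each transcript was therefore placed among those within 0.25 log2 units of its mean input signal. Since the inputs and the RIPs may have been normalized apart, these places are a description with no test.

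For kis, the 274 transcripts of like input had a median log2 ratio to input of -3.37 in Smaug RIPs (quartiles -3.82 and -2.73), against -3.36 in control RIPs (quartiles -3.75 and -2.81). The kis ratio lay at the 36.5th percentile in Smaug RIPs, against the 14.6th in control RIPs. By replicate 1, 2 and 3 it lay at the 36.1st, 7.7th and 66.4th percentile in Smaug RIPs, against the 24.8th, 2.9th and 60.2nd in control RIPs. The place of kis thus moved more between replicates than between the RIPs. The difference between the RIPs stood at the 63.5th, 60.6th and 60.6th percentile in replicates 1, 2 and 3.

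For HDAC3, the 964 transcripts of like input had a median log2 ratio to input of -1.86 in Smaug RIPs (quartiles -2.17 and -1.51), against -1.92 in control RIPs (quartiles -2.15 and -1.63). HDAC3 lay at the 13.5th percentile in Smaug RIPs, below the lower quartile, and at the 34.2nd in control RIPs. By replicate 1, 2 and 3 it lay at the 25.7th, 23.1st and 18.5th percentile in Smaug RIPs, against the 49.4th, 61.3rd and 14.8th in control RIPs. Its place in Smaug RIPs was the steadiest of the 3 transcripts, and the place of the mean over replicates lay below that of each replicate.

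For SuUR, the 867 transcripts of like input had a median log2 ratio to input of -2.29 in Smaug RIPs (quartiles -2.62 and -1.88), against -2.35 in control RIPs (quartiles -2.60 and -2.07). SuUR lay at the 28.3rd percentile in Smaug RIPs, against the 64.1st in control RIPs. By replicate 1, 2 and 3 it lay at the 41.3rd, 40.4th and 24.5th percentile in Smaug RIPs, against the 52.1st, 44.4th and 78.1st in control RIPs. SuUR was the only one of the 3 whose mean lay above the middle of its like-input transcripts in a RIP, and that RIP was the control.

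**Figure D3:**
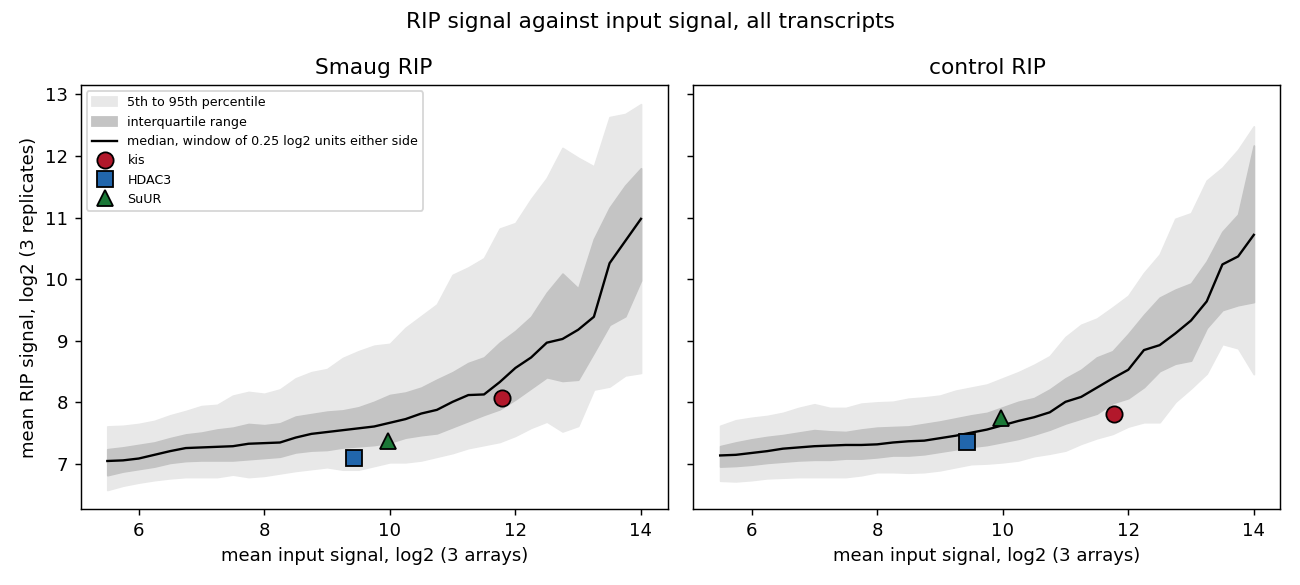
Mean RIP log2 signal (y axis, n = 3 replicates) against mean input log2 signal (x axis, 3 arrays) for the Smaug RIP and the control RIP, with the median and percentile bands of all transcripts in windows along the input. In Smaug RIPs kis (8.08), HDAC3 (7.10) and SuUR (7.38) lie below the median line, and in control RIPs kis (7.81) and HDAC3 (7.36) lie below it and SuUR (7.75) above.

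**Figure D4:**
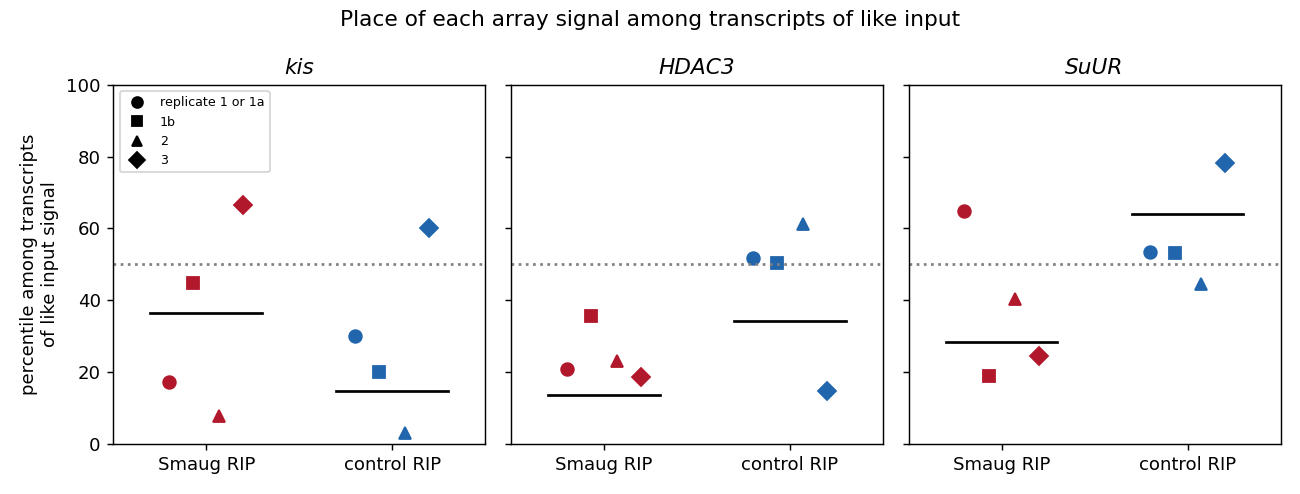
Percentile of the log2 signal of kis, HDAC3 and SuUR on each Smaug RIP and control RIP array among transcripts within 0.25 log2 units of the same input signal (y axis, percent), with symbols for arrays and a line for the mean over replicates. kis ranges from 7.7 to 66.4 in Smaug RIPs and from 2.9 to 60.2 in control RIPs, wider than the gap between its mean lines at 36.5 and 14.6.

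The RIP signals were also set against those of the 7717 transcripts not counted as expressed, whose mean log2 signal had a median of 7.15 in Smaug RIPs, against 7.21 in control RIPs. The mean of kis lay at the 99.5th percentile of these transcripts in Smaug RIPs, against the 95.5th in control RIPs. On the single arrays 1a, 1b, 2 and 3, kis lay at the 99.4th, 99.1st, 46.5th and 98.7th percentile in Smaug RIPs, against the 98.4th, 99.5th, 25.1st and 88.0th in control RIPs, so in replicate 2 it was not above these transcripts in either RIP. The mean of SuUR lay at the 77.1st in Smaug RIPs, against the 93.7th in control RIPs. On arrays 1a, 1b, 2 and 3, SuUR lay at the 99.1st, 55.2nd, 65.3rd and 42.3rd percentile in Smaug RIPs. In control RIPs these places were the 89.7th, 95.3rd, 68.5th and 84.7th. Among its Smaug RIP arrays, only 1a was thus clearly above these transcripts. The mean of HDAC3 lay at the 44.8th in Smaug RIPs, against the 67.9th in control RIPs. On arrays 1a, 1b, 2 and 3, HDAC3 lay at the 83.3rd, 69.5th, 40.5th and 32.7th percentile in Smaug RIPs. Its places in control RIPs were the 81.9th, 90.0th, 77.5th and 18.5th. The mean HDAC3 signal in Smaug RIPs was thus in the middle of the signals of transcripts with little input, with single arrays on both sides. The input signal of HDAC3 was above that of most transcripts. The files hold no detection call, so a signal at this level is not read as absence from a RIP.

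The 3 transcripts did not share a pattern over the 8 RIP arrays. The Pearson correlation of log2 signal was 0.02 between kis and HDAC3, 0.16 between kis and SuUR and 0.26 between HDAC3 and SuUR, over arrays that share slides and technical replicates. The expressed transcript most like kis was FBtr0072145 (r = 0.97 over 8 arrays), for HDAC3 it was FBtr0077882 (r = 0.99) and for SuUR FBtr0081834 (r = 0.98), none of which is paired with a gene in the table used here. A correlation above 0.9 was reached by 14 other expressed transcripts for kis, 111 for HDAC3 and 7 for SuUR. Among the 15 other expressed transcripts with a single gene name, the nearest to kis was Wdr24, a subunit of the GATOR2 complex (r = 0.77), the nearest to HDAC3 was His4r, the histone H4 replacement gene (r = 0.81), and the nearest to SuUR was alpha-Spec, which encodes α-spectrin of the membrane skeleton (r = 0.55). The differences between Smaug and control RIPs were 0.23 for Wdr24, -0.39 for His4r and -0.22 for alpha-Spec, with limma adjusted p of 0.95, 0.932 and 0.948. These are the highest of many correlations over few arrays, given with no test.

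In the study's own tables, none of the 3 genes is listed among those with Smaug-bound mRNAs or in the list of bound genes with roles in transcription or chromatin. SuUR is in its table of translationally repressed mRNAs, which was drawn from polysome experiments on other samples, and kis and HDAC3 are not. That table was cut at the looser of the false discovery rates the study used, and SuUR does not meet the stricter one. Whether the 3 are degraded in a Smaug-dependent way was not analysed here. A list of 84 genes for chromatin remodelers, histone modifiers, Polycomb and trithorax group proteins and heterochromatin proteins was made to set the 3 among others of their kind. The 3 were the only ones whose transcripts carried a single gene name here, and the other 81 were not analysed here.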

How the data were processed

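Signals of 11 hybridizations were analysed. RMA with quantile normalization was run by the authors and gave each of 15433 transcripts a signal per array out of 1 to 5 probes. The deposited inputs hold log2 values and the deposited RIPs linear intensities, which were turned into log2 here. The sources used here do not tell if RMA was run on inputs and RIPs jointly. The table of the whole series held the same values (0 differed).

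Technical replicates 1a and 1b were averaged, giving n = 3 per RIP. Differences between the RIPs were fitted in R 4.3.3 by limma 3.58.1 (lmFit, then eBayes with trend) over the 7716 expressed transcripts, with Benjamini-Hochberg adjustment. SAM, the test of the study, was rewritten as an alternative. Both were tested on simulated data. Exact permutation tests used SciPy 1.17.1. 

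The transcripts, gene lists and tests were chosen with earlier results of these data known. Genes were named through synonyms in the RefSeq gene table (Drosophila melanogaster Release 6), where 44 identifiers occur, 17 with a single gene. The named transcripts were the 3 members, list genes with a single name, and for each member the expressed transcript most correlated with it over the 8 RIP arrays, among all and among those with a single name. RefSeq lists 6 transcripts for kis and 1 each for HDAC3 and SuUR. Alternatives changed the test, technical replicates, block, dye, scaling, filter, trend, input window and replicates used.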

Additional observations from a re-analysis of the deposited data

Results flagged for a closer look

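Of the 6 sets of 4 RIP arrays (3 transcripts in each RIP), 1 held an array far from the rest. For HDAC3 in the control RIP, replicate 3 had a log2 signal of 6.81, while the other 3 arrays had 7.58 to 7.69, and the gap took up 0.87 of the range of the 4. With 4 independent arrays chance would mark about 1 in 20 sets, and since 1a and 1b are of 1 RNA the rate for these sets is not known. Control RIP replicate 3 was labeled with Cy3 and shared its array with Smaug RIP replicate 3, by the image names. Control RIP 1b was also labeled with Cy3 and had 7.69, against 7.58 in control RIP 1a with Cy5. The part of dye or array in the low signal was not tested.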

How the results depend on the processing

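No transcript of the 3 was called by limma or SAM in any of the 21 alternatives for the difference. HDAC3 and SuUR stayed negative in all 21, and kis stayed positive in 19. kis was -0.03 when Smaug RIP replicate 3 was left out and -0.21 when control RIP replicate 2 was, against 0.27. The cause was not tested. Without single replicates the range was -0.21 to 0.76 for kis, -0.52 to -0.08 for HDAC3 and -0.53 to -0.12 for SuUR. With the share of Cy3 arrays as a covariate the differences were 0.86, -0.66 and -0.12 for kis, HDAC3 and SuUR, while the Cy5 arrays alone gave 0.41, -0.50 and -0.24. Under the replicate block they stayed at 0.27, -0.25 and -0.37 (limma adjusted p 0.868, 0.84 and 0.78). The labels do not say what the numbers share, and the correlation, over expressed transcripts, of how far a Smaug RIP and the control RIP of its number lay from their groups was 0.31, 0.06 and 0.20 in replicates 1, 2 and 3. A fit of 4 arrays per RIP with the slide as a block, chosen after seeing the data, gave 0.18, -0.26 and -0.32. SAM gave an FDR of 0.77 to 0.835 for kis, 0.842 to 1 for HDAC3 and 0.841 to 1 for SuUR.

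Over all expressed transcripts, the counts called higher and lower depended more on the processing. Against 82 and 2 (548 and 203 at an unadjusted p under 0.05 in limma), there were 155 and 10 with 4 arrays per RIP, 234 and 0 by SAM with 3 replicates, 352 and 0 by SAM with 4 arrays, 189 and 29 with the replicate block, 328 and 72 with the slide block, 11 and 5 with the Cy3 covariate, 115 and 32 with Cy5 arrays alone, 76 and 6 with RIP arrays quantile normalized, 52 and 2 with no filter, 122 and 5 without the trend, and 1 to 130 and 0 to 49 without single replicates. The cause was not tested.

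Among expressed transcripts only, the input percentiles were 90.7 for kis, 50.0 for HDAC3 and 63.1 for SuUR, because fewer transcripts are counted. Without single replicates of both RIPs, the percentile among transcripts of like input was 17.9 to 53.6 in Smaug RIPs and 5.5 to 37.2 in control RIPs for kis, 13.3 to 18.9 in Smaug RIPs and 21.6 to 57.5 in control RIPs for HDAC3, and 25.7 to 37.6 in Smaug RIPs and 47.1 to 72.7 in control RIPs for SuUR. Other windows and quantile normalization moved these percentiles by less than the SD between replicates.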
